A study of Mus musculus with 6 samples.

Results

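The genes described here are the receptors and ligands of the VEGF (vascular endothelial growth factor) and angiopoietin systems: Kdr, Flt1, Flt4, Tek, Tie1, Nrp1, Nrp2, Vegfa, Vegfb and Vegfc. They were taken by symbol (GENCODE M21 names), and all 10 were found among the 38087 gene IDs of the count files. The list was chosen by family name with the fold changes of this same experiment in view, so the values below describe its members and are not independent evidence for them. Messenger RNA was sequenced from the mouse atrial muscle line HL-1. Cells of 3 libraries had received 100 nM of an siRNA directed at Circ-INSR, the circular RNA made from Insr (the insulin receptor gene), and cells of 3 libraries a scrambled siRNA. Both groups are this 1 line with no other treatment or genotype named in the labels. HL-1 cells derive from an atrial tumour of a transgenic mouse in which the SV40 large T antigen was driven by the atrial natriuretic factor promoter, so they are dividing, immortalised cells and not adult heart muscle.

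VEGF ligands are secreted dimers that bind receptor tyrosine kinases of the VEGFR family, encoded by Flt1, Kdr and Flt4. Neuropilins, encoded by Nrp1 and Nrp2, have short cytoplasmic tails without a kinase; they serve as co-receptors for VEGF ligands and as receptors for class 3 semaphorins together with plexins. Angiopoietins bind the receptor TIE2, the product of Tek, and Tie1 encodes its relative with no well-established ligand of its own. In the heart these receptors are known mainly from endothelium, while cardiomyocytes are a source of VEGF-A, VEGF-B and angiopoietin-1 for neighbouring vessels.

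Kdr and Tek stood at nearly 3 times the control level after Circ-INSR siRNA, and their upstream sequences are shown first together with those of the ligand genes Vegfb, which rose, and Vegfa, which fell. Each is the stretch of 250 bases before the RefSeq start site (build GRCm38.p6), written 5′ to 3′ on the gene's strand. Capitals mark the ETS core GGAAG and the GC box GGGCGG on either strand.
Kdr (chr5:75978456-75978705, minus strand): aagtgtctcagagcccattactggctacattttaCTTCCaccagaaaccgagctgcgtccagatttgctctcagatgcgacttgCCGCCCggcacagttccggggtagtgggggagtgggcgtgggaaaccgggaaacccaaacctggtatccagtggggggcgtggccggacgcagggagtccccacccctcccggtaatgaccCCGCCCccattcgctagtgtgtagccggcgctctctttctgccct
Tek (chr4:94739039-94739288, plus strand): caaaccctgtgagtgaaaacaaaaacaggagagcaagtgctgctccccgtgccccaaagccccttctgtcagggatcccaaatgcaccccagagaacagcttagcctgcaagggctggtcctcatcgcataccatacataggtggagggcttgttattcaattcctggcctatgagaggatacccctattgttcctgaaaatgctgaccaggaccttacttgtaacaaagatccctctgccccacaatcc
Vegfb (chr19:6987652-6987901, minus strand): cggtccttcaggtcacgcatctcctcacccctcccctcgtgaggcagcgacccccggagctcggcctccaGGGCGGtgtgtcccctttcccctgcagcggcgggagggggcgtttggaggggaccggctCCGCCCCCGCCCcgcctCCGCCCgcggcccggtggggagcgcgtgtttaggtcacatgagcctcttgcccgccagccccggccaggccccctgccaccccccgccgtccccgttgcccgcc
Vegfa (chr17:46032378-46032627, minus strand): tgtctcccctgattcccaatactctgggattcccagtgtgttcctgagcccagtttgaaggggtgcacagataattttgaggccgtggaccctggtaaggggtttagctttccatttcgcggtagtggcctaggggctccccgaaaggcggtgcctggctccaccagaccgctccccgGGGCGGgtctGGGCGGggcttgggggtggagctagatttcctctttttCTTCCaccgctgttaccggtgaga

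The promoters of the 2 receptor genes with the large rise differed in composition. The Kdr window was 61.6% G and C with 16 CpG pairs and held 1 ETS core and 2 GC boxes, the nearer of which lay 45 bases before the start. The Tek window was 51.2% G and C with 2 CpG pairs and held no match to either motif. Among 32851 RefSeq windows of this length, 64.1% held the ETS core and 32.7% the GC box. The E-box CANNTG, found in 66.2% of windows, occurred at 1 place in the Kdr window and at 2 places in the Tek window. The hypoxia core ACGTG, found in 16.6% of windows, was in none of the 4 printed here. The window of a further RefSeq start of Vegfa held 1 match, but that window (chr17:46025164-46025413) lies inside the annotated gene. Also searched were AGATAA (9.99% of windows, 1 match for Vegfa), AGGTCA (14% of windows, 2 matches for Vegfb) and TATAAA (12.4% of windows, no match in these 4). Vegfb had the most G and C (76.4%, with 4 GC boxes), against 59.2% and 2 GC boxes for Vegfa. In these 4 windows no ETS core or GC box overlapped a match to another motif; in the Vegfb window the E-box overlapped 1 AGGTCA match. A match of letters is a description of the sequence and does not show binding.

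The libraries held between 68468620 and 77037474 counts in the Circ-INSR siRNA group and between 60024750 and 62523602 in the control group. Insr, the gene that hosts the circular RNA, was at 89.2, 89.2 and 89.2 CPM (CPM being counts scaled to a common library size with TMM factors) after Circ-INSR siRNA, against 129.0, 127.6 and 103.8 CPM in control. Insr was called lower, with a log2 fold change of -0.43 (SE 0.07). Poly(A) selection keeps mainly RNA with a poly(A) tail, and gene counts are not split into linear and circular RNA. The Insr values are therefore no measure of the knockdown of Circ-INSR. Control replicate 3 differed from its group in long transcripts, with genes of at least 9219 exonic bases at a median log2 deviation of -0.13 there, against 0.03 and 0.04 in control replicates 1 and 2. All 12 cardiomyocyte markers searched could be tested (5 higher, 4 lower). Their summed levels were 6541 to 6645 CPM after Circ-INSR siRNA and 6540 to 6824 CPM in control. These sums join opposite changes of abundant genes, such as Myh6 at a log2 fold change of 0.50 (SE 0.05) and Tnnt2 at -0.73 (SE 0.04). Nothing in the labels says that the 3 libraries of a group came from separate cultures, so the spread between them may be technical. In bulk RNA a change in the share of cells that express a gene and a change in RNA per cell cannot be told apart.

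Of the 10 genes, 8 passed the filter on low counts, 4 were called higher and 2 lower after Circ-INSR siRNA, and 2 were not called (quasi-likelihood F-test of edgeR, p adjusted over all genes by Benjamini-Hochberg, threshold 0.05). Across the experiment 28.5% of 16666 genes tested were called higher and 28.5% lower, 57.0% in all, so a call by itself is common in these data. The genes called higher were Kdr, Tek, Nrp2 and Vegfb, and those called lower were Nrp1 and Vegfa. The median log2 fold change of the 8 was 0.36, against -0.00 for all genes tested. Vegfb rose where Vegfa fell, and Nrp2 rose where Nrp1 fell. In CPM, the groups did not overlap for these 6 genes and for Tie1, as was so for 63.3% of all genes tested.

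**Figure D1:**
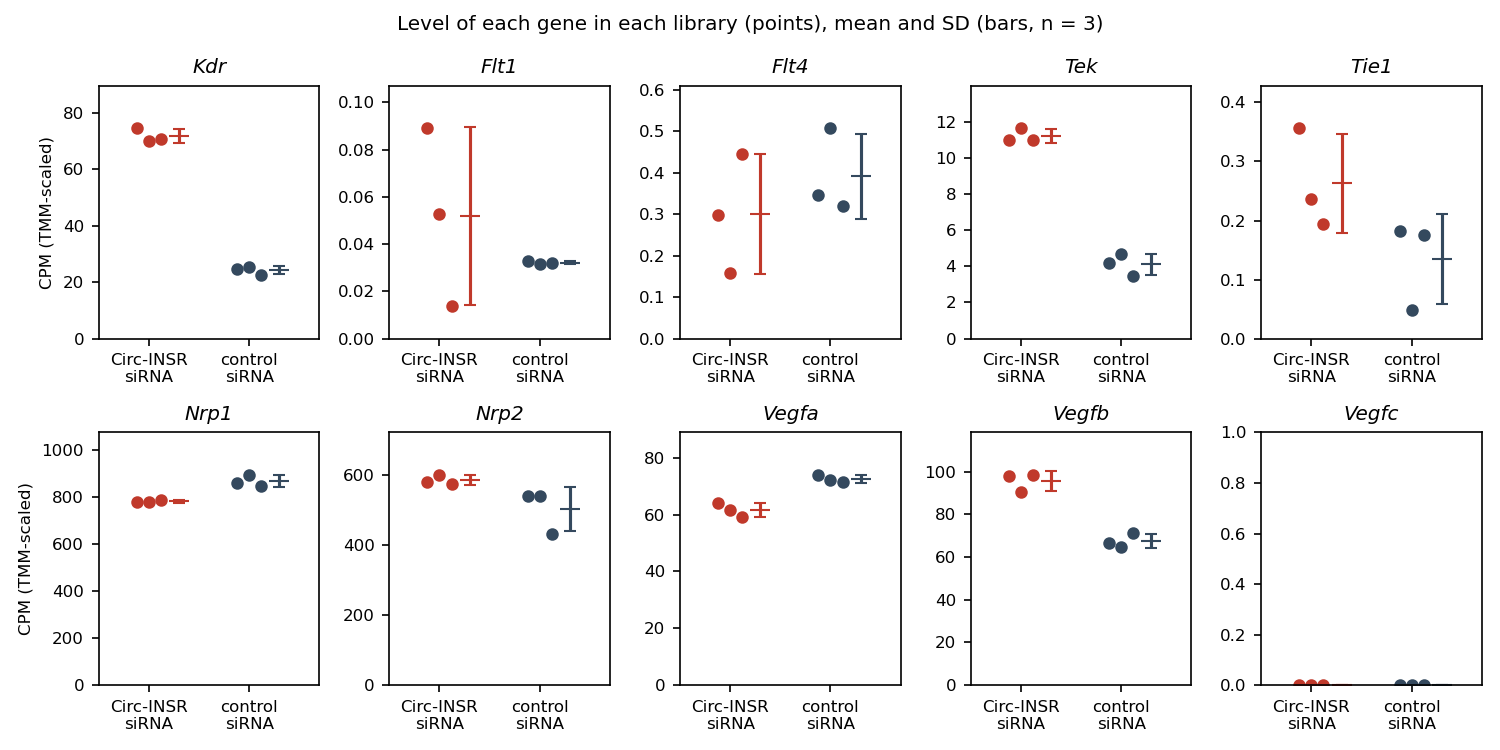
TMM-scaled CPM of the 10 genes in each library (points), with the mean and SD beside them (n = 3), Circ-INSR siRNA left of control siRNA; every axis starts at 0 and has its own range. Kdr and Tek stand near 3 times their control level, Vegfb is higher, Vegfa and Nrp1 are slightly lower, and Vegfc is at 0 in every library.

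Kdr encodes VEGFR-2, the main signalling receptor for VEGF-A (ENSMUSG00000062960, mm10 chromosome 5, 75932827 to 75978458, minus strand). It had 74.5, 69.9 and 70.6 CPM in the Circ-INSR siRNA libraries, against 24.6, 25.4 and 22.6 CPM in the control libraries. Every Circ-INSR siRNA library lay far above every control library. The means were 71.7 ± 2.49 CPM after Circ-INSR siRNA and 24.2 ± 1.45 CPM in control (SD, n = 3 each), a ratio of 2.96. The fitted log2 fold change was 1.57 (SE 0.05), and 1.03% of genes tested had a larger rise. Those values rest on 15400 counts after Circ-INSR siRNA and 4510 in control.

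Neither of the nearest tested protein-coding genes on chromosome 5 was called. Kit, 276 kb away and itself a receptor tyrosine kinase gene, averaged 0.187 CPM after Circ-INSR siRNA and 0.203 CPM in control with overlapping libraries. Srd5a3, 162 kb away on the other side, averaged 17.9 ± 0.997 CPM after Circ-INSR siRNA and 19.3 ± 1.14 CPM in control, with a log2 fold change of -0.10 (SE 0.07). The genes whose pattern over the 6 libraries was closest to that of Kdr, by Euclidean distance of centred log2 CPM among 12298 genes, were Adamts9, Syngr2 and Mylk4, at distances of 0.09, 0.15 and 0.15. Adamts9, which encodes a secreted metalloprotease, had 116.8, 118.1 and 114.0 CPM after Circ-INSR siRNA, against 40.2, 41.7 and 35.4 CPM in control. Syngr2, a synaptogyrin gene, and Mylk4, of the myosin light chain kinase family, had log2 fold changes of 1.56 (SE 0.05) and 1.50 (SE 0.05).

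Flt1 and Flt4, the genes of the other VEGF receptor kinases, were close to undetected. Flt1 encodes VEGFR-1, which binds VEGF-A, VEGF-B and placental growth factor and also exists as a soluble decoy (ENSMUSG00000029648, chromosome 5, 147561604 to 147726011, minus strand). It had 6, 4 and 1 counts after Circ-INSR siRNA and 2, 2 and 2 counts in control, did not pass the filter, and no fold is given at this depth. Flt4 encodes VEGFR-3, the receptor for VEGF-C and VEGF-D (ENSMUSG00000020357, chromosome 11, 49609263 to 49652739, plus strand). It had 20, 12 and 32 counts after Circ-INSR siRNA and 21, 32 and 20 counts in control, or 0.300 ± 0.144 CPM after Circ-INSR siRNA and 0.391 ± 0.102 CPM in control (SD, n = 3 each). The libraries overlapped and Flt4 was not called, with a log2 fold change of -0.39 (SE 0.38), a difference not detectable at this depth. Kdr held nearly all counts of the 3 VEGF receptor kinase genes in both groups.

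Tek, which encodes TIE2 (ENSMUSG00000006386, chromosome 4, 94739289 to 94874976, plus strand), had 11.0, 11.7 and 11.0 CPM after Circ-INSR siRNA, against 4.16, 4.68 and 3.49 CPM in control. All 3 Circ-INSR siRNA libraries were above the controls. The means were 11.2 ± 0.371 CPM after Circ-INSR siRNA and 4.11 ± 0.596 CPM in control (SD, n = 3 each), a ratio of 2.73, and the log2 fold change was 1.45 (SE 0.10). The nearest tested neighbours, Ift74 and Eqtn, had log2 fold changes of 0.13 (SE 0.06) and -0.08 (SE 0.30) and were not called. Tie1 (ENSMUSG00000033191, chromosome 4, 118471191 to 118490061, minus strand) had 24, 18 and 14 counts after Circ-INSR siRNA and 11, 3 and 11 counts in control. The Tie1 libraries did not overlap in CPM, yet with so few counts its log2 fold change of 0.95 (SE 0.47) was not called. Per kilobase of exon, the ratio of Tek to Kdr was 0.301 ± 0.0181 after Circ-INSR siRNA and 0.324 ± 0.0282 in control (SD, n = 3 each), and the groups overlapped in this ratio.

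Nrp1 was the most abundant of the genes and moved little. Its product is a co-receptor of VEGFR-2 and the semaphorin 3A receptor (ENSMUSG00000025810, chromosome 8, 128358604 to 128503363, plus strand). It had 778.3, 778.1 and 787.0 CPM after Circ-INSR siRNA, against 858.7, 895.0 and 848.0 CPM in control. Every Circ-INSR siRNA library was below every control library, and the log2 fold change was -0.15 (SE 0.04), or -0.23 with a per-library trend on exonic length and GC content removed. Its nearest tested neighbours, both called, were Pard3, a cell polarity gene, at 0.66 (SE 0.07) and Itgb1, which encodes the integrin beta 1 chain, at -0.14 (SE 0.04).

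Nrp2 encodes the neuropilin known for VEGF-C and semaphorin 3F (ENSMUSG00000025969, chromosome 1, 62703285 to 62818695, plus strand). It had 580.1, 602.0 and 575.9 CPM after Circ-INSR siRNA, against 540.1, 539.5 and 432.4 CPM in control. The groups did not overlap, but control replicate 3 lay well below the other controls. Nrp2 has 11842 exonic bases, and long genes had a median log2 deviation of -0.13 in that library. Whether length plays a part in the Nrp2 value there was not tested. The log2 fold change was 0.22 (SE 0.08; edgeR adjusted p = 0.037), and 0.12 without control replicate 3 (edgeR adjusted p = 0.004). With the trend on exonic length and GC content removed it was 0.24 (edgeR adjusted p = 2.98e-05). Leaving out any 1 of the 3 Circ-INSR siRNA libraries ended the call, with edgeR adjusted p of 0.0689, 0.0961 and 0.0562 for replicates 1, 2 and 3. Its adjusted p ran from 3.87e-06 to 0.0961 over all settings. The ratio of Nrp1 to Nrp2 per kilobase was 1.61 ± 0.0457 after Circ-INSR siRNA and 2.10 ± 0.239 in control (SD, n = 3 each), without overlap. Pard3b, the nearest tested gene at lower coordinates, rose by 1.02 (SE 0.05), and Ino80d on the other side was not called (-0.12, SE 0.07).

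Vegfa encodes the central ligand of the family and is a target of hypoxia-inducible factors (ENSMUSG00000023951, chromosome 17, 46016993 to 46032369, minus strand). It had 64.1, 61.6 and 59.0 CPM after Circ-INSR siRNA, against 74.1, 72.1 and 71.4 CPM in control. The 3 Circ-INSR siRNA libraries lay below the controls, with means of 61.6 ± 2.58 CPM after Circ-INSR siRNA and 72.5 ± 1.36 CPM in control (SD, n = 3 each) and a log2 fold change of -0.24 (SE 0.05). M21 lists 13 transcripts of Vegfa, and gene counts do not separate its splice forms.

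Vegfb encodes a ligand of VEGFR-1 that is abundant in heart muscle (ENSMUSG00000024962, chromosome 19, 6982473 to 6987651, minus strand). It had 98.0, 90.5 and 98.7 CPM after Circ-INSR siRNA, against 66.6, 64.9 and 71.4 CPM in control. All Circ-INSR siRNA libraries were above the controls, with means of 95.7 ± 4.52 CPM after Circ-INSR siRNA and 67.6 ± 3.40 CPM in control (SD, n = 3 each) and a log2 fold change of 0.50 (SE 0.05). Its neighbours on the same strand moved the other way. Dnajc4, a J-domain protein gene 0.26 kb away whose end lies just upstream of Vegfb, fell by 0.44 on the log2 scale (SE 0.06), and Fkbp2, a prolyl isomerase gene 1.97 kb away, fell by 0.18 (SE 0.05). Both were found by position, as the nearest tested protein-coding genes.

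Vegfc, which encodes the main lymphatic ligand (ENSMUSG00000031520, chromosome 8, 54077606 to 54187096, plus strand), had 0 counts in all 6 libraries. A count of 0 allows up to 3 counts, between 0.0395 and 0.0446 CPM in the Circ-INSR siRNA libraries and between 0.0475 and 0.0496 CPM in the controls. Such limits cover counting error only. They would be higher if both mates of a read pair were counted, which was not tested.

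Levels of different genes were set against each other per kilobase of exon. After Circ-INSR siRNA the order was Nrp1 (79.8 ± 0.521), Vegfb (59.6 ± 2.82), Nrp2 (49.5 ± 1.19), Vegfa (14.4 ± 0.602), Kdr (7.94 ± 0.275) and Tek (2.38 ± 0.0788 CPM per kb; SD, n = 3), and none of these 6 overlapped its neighbour in the order. In control it was Nrp1 (88.6 ± 2.52), Nrp2 (42.6 ± 5.23), Vegfb (42.1 ± 2.12), Vegfa (16.9 ± 0.318), Kdr (2.68 ± 0.161) and Tek (0.872 ± 0.126 CPM per kb; SD, n = 3), and Nrp2 and Vegfb overlapped. Tie1, Flt4 and Flt1 were all under 0.1 CPM per kb in every library. After Circ-INSR siRNA Tie1 came before Flt4, with overlap. In control Flt4 (0.0475 ± 0.0124) came before Tie1 (0.0274 ± 0.0154 CPM per kb; SD, n = 3) without overlap. Flt1 came after both in each group. With the longest annotated transcript as the length, Nrp2 came before Vegfb after Circ-INSR siRNA (87.2 and 74.7 CPM per kb), while the control order was the same, now without overlap of Nrp2 and Vegfb, and Nrp1 stood at 238 CPM per kb there. Absolute levels thus depend on the gene model, which does not touch comparisons of 1 gene between groups.

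**Figure D2:**
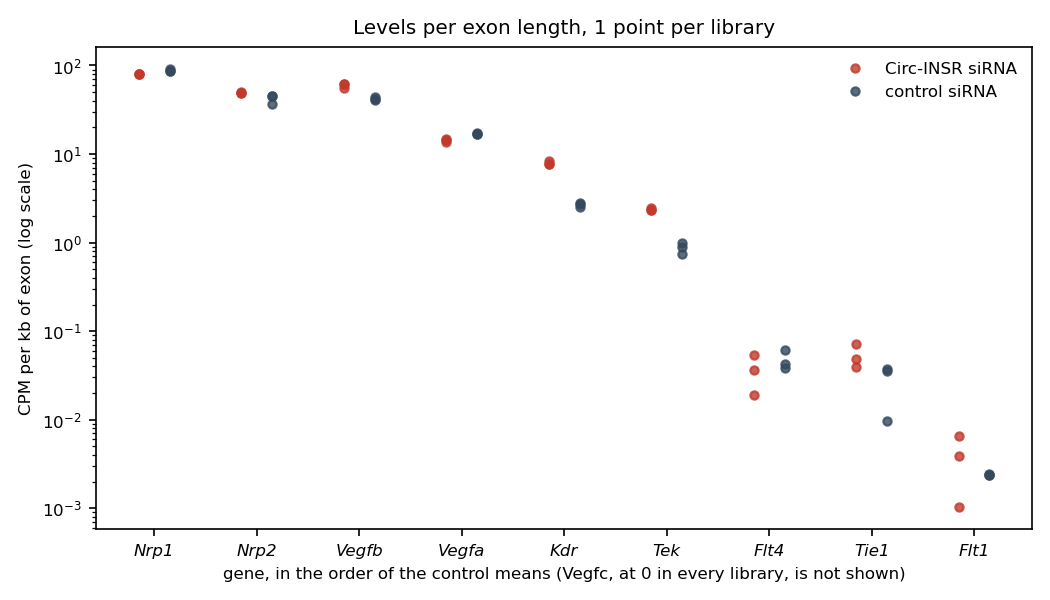
CPM per kilobase of exon on a log axis for 9 genes in the order of the control means, 1 point per library, Circ-INSR siRNA left of control siRNA. Neuropilins and Vegfb lie highest, Kdr and Tek are lower and rise after Circ-INSR siRNA, and Flt4, Tie1 and Flt1 lie under 0.1 CPM per kb.

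Within each library the balance of ligand to receptor mRNA moved with Kdr. Vegfa was 1.81, 1.86 and 1.76 times Kdr per kilobase after Circ-INSR siRNA, against 6.36, 5.97 and 6.66 times in control. Vegfa relative to Vegfb stood at 0.241 ± 0.0158 after Circ-INSR siRNA and at 0.403 ± 0.0242 in control (SD, n = 3 each). Kdr relative to its co-receptor Nrp1 stood at 0.0994 ± 0.00373 after Circ-INSR siRNA and 0.0302 ± 0.00117 in control, and Nrp1 remained in large excess. None of these 3 ratios overlapped between groups, whereas Vegfa relative to Nrp1 did, at 0.180 ± 0.00855 after Circ-INSR siRNA and 0.191 ± 0.00658 in control. The ratios are built from the same counts as the fold changes and add no independent evidence.

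**Figure D3:**
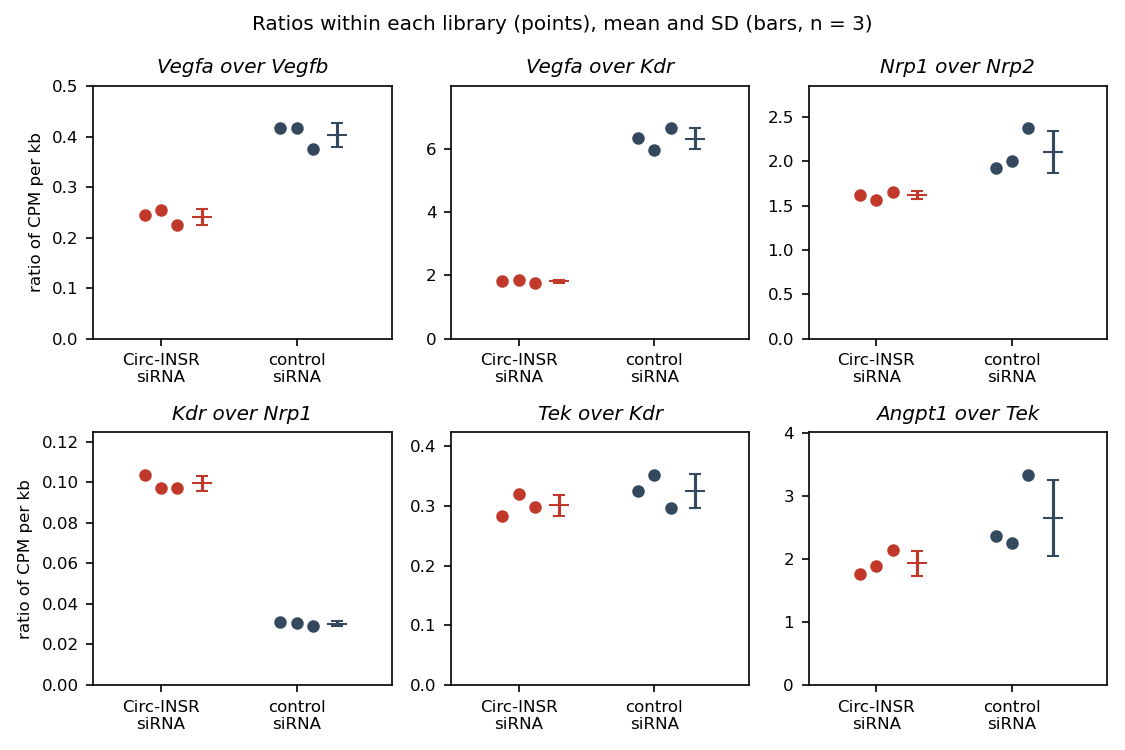
Ratios of CPM per kilobase between pairs of genes in each library (points), with the mean and SD (n = 3), Circ-INSR siRNA left of control siRNA. The ratio of Vegfa to Kdr is near 1.81 after Circ-INSR siRNA and near 6.33 in control, and the ratio of Tek to Kdr overlaps between the groups.

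Of the remaining VEGF family ligands and angiopoietins, 5 were in the files and 4 could be tested. Of these 1 rose and 2 fell, with a median log2 fold change of -0.34. Beside this list and those below, the shares over all genes tested were 28.5% called higher and 28.5% lower. Angpt1, the activating ligand of TIE2, had 21.4, 24.3 and 26.0 CPM after Circ-INSR siRNA, against 10.9, 11.6 and 12.9 CPM in control, a log2 fold change of 1.02 (SE 0.08). The gene of this ligand and that of its receptor Tek were therefore both higher in all Circ-INSR siRNA libraries. Pgf, the placental growth factor gene, whose product binds VEGFR-1, had 1.43, 0.987 and 1.46 CPM after Circ-INSR siRNA, against 2.89, 3.03 and 2.64 CPM in control, and fell by 1.15 on the log2 scale (SE 0.16). Vegfd was called lower at -0.40 (SE 0.16; edgeR adjusted p = 0.0476), although its libraries overlapped. It lost its call without Circ-INSR siRNA replicate 1 (edgeR adjusted p = 0.159) or 3 (0.111) and without control replicate 2 (0.24, log2 fold change -0.22). Angpt2, the context-dependent antagonist of TIE2, is named after its values were seen: it had 6, 4 and 4 counts after Circ-INSR siRNA and 4, 18 and 11 counts in control and was not tested.

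Class 3 semaphorins and the plexins that pair with neuropilins changed in both directions, with 5 of 11 tested higher and 3 lower (median log2 fold change 0.38). Sema3a, whose product binds neuropilin-1, averaged 43.3 ± 1.07 CPM after Circ-INSR siRNA and 23.6 ± 0.854 CPM in control (SD, n = 3 each). Plxnd1, a plexin gene needed for vascular patterning in mice, had 81.5, 80.4 and 78.3 CPM after Circ-INSR siRNA, against 48.5, 48.0 and 39.6 CPM in control. Plxna3 averaged 21.9 ± 0.546 CPM after Circ-INSR siRNA and 13.4 ± 1.05 CPM in control. The edgeR adjusted p of these 3 lay between 5.83e-08 and 3.18e-06.

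Of genes that process or activate VEGF-C, 7 of 8 could be tested, and 2 rose and 2 fell (median 0.19); the count of risers was 1 without Circ-INSR siRNA replicate 1 or 3 or control replicate 1 or 3. Furin, a proprotein convertase gene, averaged 260.2 ± 4.29 CPM after Circ-INSR siRNA and 371.5 ± 22.1 CPM in control (SD, n = 3 each). Plau, which encodes urokinase, averaged 5.10 ± 0.249 CPM after Circ-INSR siRNA and 9.28 ± 1.10 CPM in control, and the convertase gene Pcsk7 averaged 22.1 ± 0.835 CPM after Circ-INSR siRNA and 17.8 ± 0.697 CPM in control. Vegfc itself was at 0, as given above.

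**Figure D4:**
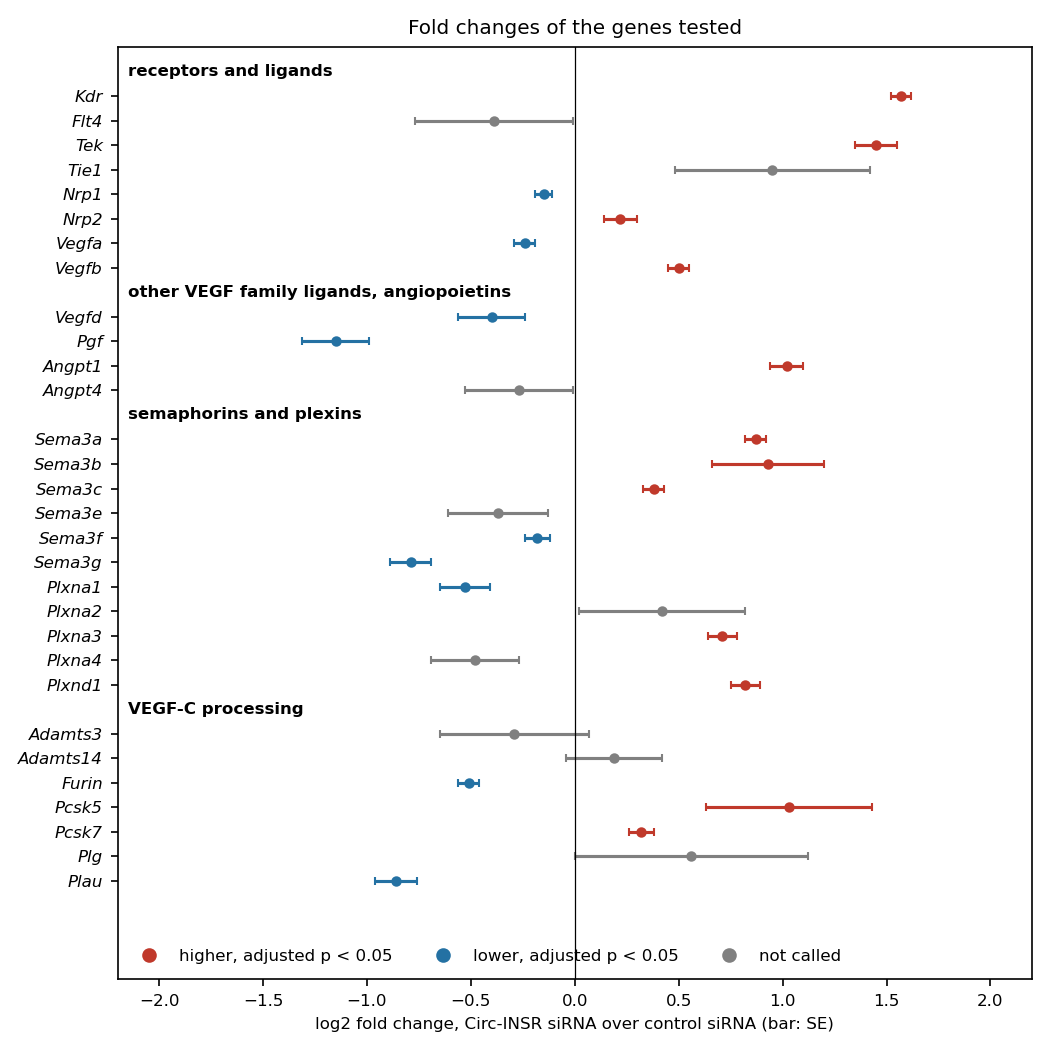
Log2 fold change (Circ-INSR siRNA over control siRNA, bars are SE) of the receptors and ligands that passed the filter and of 3 groups of partner genes; colours give the edgeR call. Kdr at 1.57, Tek at 1.45 and Angpt1 at 1.02 lie farthest to the right among genes with small errors, and Pgf at -1.15 farthest to the left.

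Genes downstream of the receptors also went both ways. Of 39 adaptor, kinase and phosphatase genes tested, 17 rose and 13 fell, with a median log2 fold change of 0.09. Tnip2, whose product ABIN-2 is known to bind TIE2, fell by 0.69 (SE 0.05) and Yes1, a Src-family kinase gene, fell by 0.82 (SE 0.07). Genes that endothelial cells are known to induce after VEGF fell in 8 of 15 cases and rose in 2 (median -0.27); 4 rose with the length and GC trend removed and 1 with a filter of 1 CPM in 3 libraries. Stc1, the stanniocalcin gene, averaged 2.80 ± 0.153 CPM after Circ-INSR siRNA and 13.7 ± 1.27 CPM in control (SD, n = 3 each). Icam1, an adhesion molecule gene, averaged 82.1 ± 2.97 CPM after Circ-INSR siRNA and 156.6 ± 7.12 CPM in control, and Adamts1, a protease gene, averaged 68.9 ± 1.35 CPM after Circ-INSR siRNA and 26.1 ± 1.67 CPM in control.

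HIF and its regulators were called in 5 of 8 cases, 2 higher and 3 lower (median 0.02). Other HIF targets were called in 14 of 20, 8 higher and 6 lower (median 0.03). Among all genes tested 57.0% were called, so these counts alone show no response of the lists. Hif1a, the oxygen-regulated subunit gene, averaged 493.0 ± 15.1 CPM after Circ-INSR siRNA and 592.8 ± 30.2 CPM in control (SD, n = 3 each). Egln3, a prolyl hydroxylase gene that HIF also induces, fell by 1.22 (SE 0.06) and its relative Egln2 rose by 0.57 (SE 0.05). Pfkfb3 and Slc2a1, both of glucose use, rose by 1.01 (SE 0.06) and 0.70 (SE 0.04), and Ddit4, an mTORC1 inhibitor gene, fell by 0.85 (SE 0.05). Vegfa, which fell by 0.24, thus stood beside HIF targets of either direction.

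Of transcription factor genes that act on these receptors in endothelium, 6 of 17 tested rose and 5 fell (median 0.16). Ets1 averaged 8.10 ± 0.948 CPM after Circ-INSR siRNA and 24.0 ± 2.25 CPM in control (SD, n = 3 each). Ets2 averaged 24.9 ± 0.0524 CPM after Circ-INSR siRNA and 45.4 ± 1.08 CPM in control. Nr2f2, a venous and atrial identity factor, averaged 93.5 ± 2.73 CPM after Circ-INSR siRNA and 56.7 ± 3.80 CPM in control. Erg, an ETS factor that defines endothelium, is named outside the rule for naming genes. It had 2, 2 and 2 counts after Circ-INSR siRNA and 0 in every control library, and was not tested. A count of 0 allows up to 3 counts, so no difference is read from these values.

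Markers of endothelium were searched because Kdr and Tek are best known there. Of 15 markers, 8 stayed under 1 CPM in every library, among them Emcn and Sox17 at 0 throughout, and 9 could be tested, of which 3 were called higher and 2 lower. Cdh5, which encodes the junctional cadherin of endothelium, had 2, 0 and 2 counts after Circ-INSR siRNA and 0, 0 and 4 counts in control, and Cldn5 had 0, 0 and 4 counts against 0 in every control library. Vwf had 6, 5 and 2 counts after Circ-INSR siRNA and 6, 5 and 4 counts in control. The summed level of the 15 was 26.0 to 28.2 CPM after Circ-INSR siRNA and 31.4 to 34.8 CPM in control. Egfl7 was the largest part of this sum in every library, so the sum gives most weight to that gene. The lower sum came with lower levels of both Egfl7 and Plvap. The 3 called higher were Sox18, Ptprb and Eng, with log2 fold changes of 0.62, 0.74 and 0.51. The 2 called lower, Egfl7 and Plvap, had log2 fold changes of -0.45 and -1.24. The part of endothelial cells in the Kdr and Tek values was not tested.

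Lists for other cell types were small and moved unevenly, and their part in the results above was not tested. Of 5 lymphatic markers 4 could be tested and 1 (Lyve1) was called, lower; Ccl21a was at 0, and the sum, mostly Prox1, was 47.7 to 53.3 CPM after Circ-INSR siRNA and 43.2 to 48.5 CPM in control. Of 7 fibroblast markers 4 could be tested, 1 higher and 1 lower; Tcf21 was at 0, and the sum, mostly Col1a1, was 115.4 to 130.5 CPM after Circ-INSR siRNA and 162.8 to 181.7 CPM in control. Of 7 mural markers 5 could be tested, 3 higher and 2 lower, and the sum, nearly all Acta2 (smooth muscle actin), was 5724 to 5951 CPM after Circ-INSR siRNA and 3441 to 3532 CPM in control. Of 6 macrophage markers 3 could be tested, 1 higher and 2 lower; Adgre1 was at 0, and the sum was 5.01 to 5.85 CPM after Circ-INSR siRNA and 7.72 to 8.66 CPM in control.

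**Figure D5:**
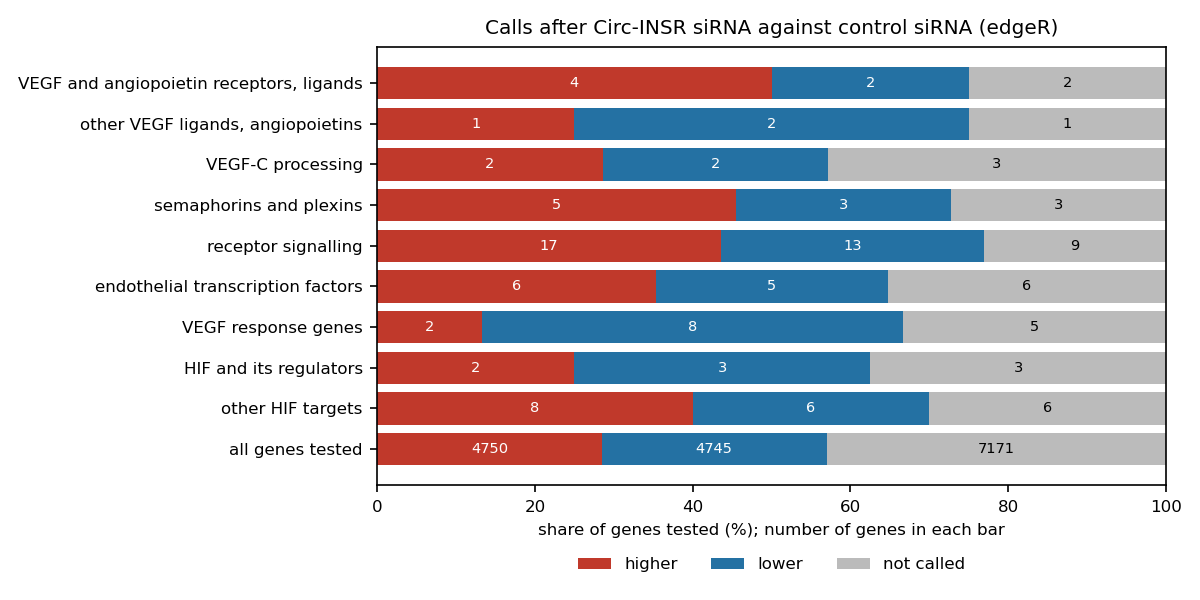
Share of the genes tested in each list that were called higher, lower or not called after Circ-INSR siRNA against control siRNA (edgeR, adjusted p under 0.05), with the number of genes in each bar and all genes tested in the last row. Each pathway list shown holds calls in both directions, as did all genes tested, with 4750 higher and 4745 lower.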

How the data were processed

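Counts per Ensembl gene were analysed for HL-1 cells treated with an siRNA against Circ-INSR or a scrambled siRNA (3 libraries each). Per the labels' protocols, poly(A) RNA was selected and directional libraries were made. The deposited values are raw counts, 1 file per library; the submitters' processing notes name mm10, STAR 2.5.0c, featureCounts 1.6.4 and other tools without roles, and the annotation release, strand setting and treatment of multimapping reads are not given in these sources. Genes with 2 counts outnumber those with 1 in every file, and genes with 4 those with 3, a pattern that counting both mates of a pair would give (not tested); the tests were repeated with counts halved. No exon of a member overlaps another gene in GENCODE M21 (95.33% of IDs matched) apart from Nrp1 with Mir1903, at 0 in every library.

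Genes were filtered with filterByExpr (minimum count 10, total 15), scaled by TMM and compared with edgeR 4.0.16 (R 4.3.3; robust quasi-likelihood F-test, group as the only term, Benjamini-Hochberg adjustment over 16666 genes, threshold 0.05). SE was taken as |log2 fold change| over the root of the F statistic. CPM and levels per kilobase of union exon were computed from the counts (Python 3.11.15). The fit was also run on simulated counts in which few genes changed, unlike these data, and nothing here rests on that run. The members and lists were chosen with earlier results of these data known; lists were set by function. Up to 3 genes per pathway list were named, those with the smallest adjusted p, and 3 genes most like the member that changed most; 1 gene that this rule names is not reported here. Alternatives were other scalings, filters, halved counts, each library left out, a replicate block, DESeq2 1.42.0, limma-voom (limma 3.58.1) and removal of a trend on length and GC content. Promoters come from RefSeq (GRCm38.p6), where all 10 members matched.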

Additional observations from a re-analysis of the deposited data

How the results depend on the processing

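Across 17 alternatives, Kdr (1.52 to 1.6), Tek (1.35 to 1.55), Vegfb (0.46 to 0.6), Vegfa (-0.28 to -0.18) and Nrp1 (-0.23 to -0.13) kept their direction and call wherever they were tested. Nrp2 (0.12 to 0.27) kept its direction and lost its call with no filter on low counts (edgeR adjusted p = 0.0786) and without each Circ-INSR siRNA library; the cause was not tested. Flt4 and Tie1 were called in no setting. Flt1 could be tested only with no filter on low counts and was not called (edgeR adjusted p = 0.662). Members called numbered 3 to 4 higher and 2 lower with 1 library left out, and those in all genes 4209 to 5150 higher and 4148 to 5064 lower. With the replicate block 4968 genes were higher and 4900 lower, and members stayed at 4 and 2. Same-numbered libraries deviated together only weakly (correlations 0.024, 0.074 and 0.036), although each library correlated best with its own number. With 3 libraries in each group these values do not settle whether the libraries were paired.

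Lists with few calls moved most. Remaining ligands called lower numbered 1 with limma-voom and 1 to 3 with a library left out. VEGF-C processing genes called higher numbered 1 with the filter of 1 CPM in 3 libraries, 1 with the replicate block and 1 to 2 with a library left out. VEGF response genes called higher numbered 1 with that filter, and 4 once the length and GC trend was removed, with or without the block. Comparisons of Flt1, Flt4 and Tie1 are limited by their low counts, and Vegfc had 0 counts in every library.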
